A study of Saccharomyces cerevisiae with 12 samples.

Results

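The small ribosomal subunit protein genes of budding yeast (RPS genes) were followed through Scc2 peak lists from cultures with and without auxin. Membership was set by name in the RefSeq R64 annotation, and the set was chosen with earlier results of these data known. It holds the nuclear coding genes whose symbol is RPS followed by a number and, for duplicated genes, the letter A or B. This gave 56 of the 6002 nuclear coding genes, of which 48 form 24 pairs of A and B paralogues and 8 are single-copy genes. The large subunit genes (RPL and RPP, 82 genes) and the 5864 coding genes not named RPS, RPL or RPP served for comparison.

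Scc2 carrying a 13MYC tag was immunoprecipitated with an antibody against Myc from W303 yeast, and the precipitated DNA was sequenced. All samples were MATa and shared SCC2-13MYC::NAT, MED14-AID*-6FLAG::HYG and ura3-1::ADH1-OsTIR1, so that the controls carried the degron on Med14 and the plant F-box protein OsTIR1 as well. The 3 auxin cultures received 1 mM auxin (IAA) and the 3 no-auxin cultures are those whose titles and treatment labels give none, although the labels repeat the auxin protocol for every sample. Cultures were held in alpha-factor and then in nocodazole for 2 h before fixation. No list from cells without the Myc tag, the degron or OsTIR1 was used here, so that a response to auxin alone and a response to the loss of Med14 cannot be told apart, and no value here measures Med14. The comparison asked where Scc2 peaks were called once Med14 was targeted for degradation.

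Small subunit proteins bind the RNA of the small ribosomal subunit, and together they form the part of the ribosome that holds the messenger RNA and reads its codons. In growing yeast their genes are among the most heavily transcribed by RNA polymerase II, under promoters where Rap1, Fhl1, Ifh1 and Sfp1 act, and most are present as a pair of paralogues from an ancient duplication of the genome. Scc2, with Scc4, loads the ring-shaped cohesin complex onto chromosomes. Mediator bridges transcription factors and RNA polymerase II, and Med14 is its scaffold subunit.

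Each immunoprecipitate has its own list of called peaks. The auxin lists held 964, 1324 and 1569 peaks, with a median fold enrichment given by the authors' peak caller of 3.93, 2.83 and 2.57, and the no-auxin lists held 2115, 2111 and 1502 peaks with a median fold of 1.70, 1.67 and 2.54. Read depth is unknown, and a gene without a peak is a gene where none was called, not a gene without Scc2. The part of list length and enrichment in the results below was not tested beyond the comparisons with similar or equal list length. Replicates are separate cultures, per the labels.

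The coding spans of the RPS genes carried peaks in few cases with auxin and in nearly every case without it. A peak overlapped the coding span of 2, 8 and 11 of 56 RPS genes in the auxin lists, against 53, 53 and 49 of 56 in the no-auxin lists. The means were 12.5 ± 8.18% with auxin and 92.3 ± 4.12% without (SD, n = 3 lists each), and the groups did not overlap. Over all 6002 coding genes the shares were 11.8 ± 3.65% with auxin and 22.3 ± 4.61% without, so the RPS genes stood far above the genome without auxin and close to it with auxin. The third auxin list and the third no-auxin list are of similar length, at 1569 and 1502 peaks, and they held a coding-span peak at 11 and 49 RPS genes.

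The covered share of the coding span, in which genes without a peak count as 0, largely restates this contrast. Peaks covered on average 1.09%, 6.11% and 9.44% of an RPS coding span in the auxin lists, against 74.6%, 76.7% and 58.9% in the no-auxin lists. The means were 5.54 ± 4.20% with auxin and 70.1 ± 9.69% without (SD, n = 3 each), beside 5.64 ± 1.78% and 12.1 ± 2.11% over all coding genes.

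**Figure D1:**
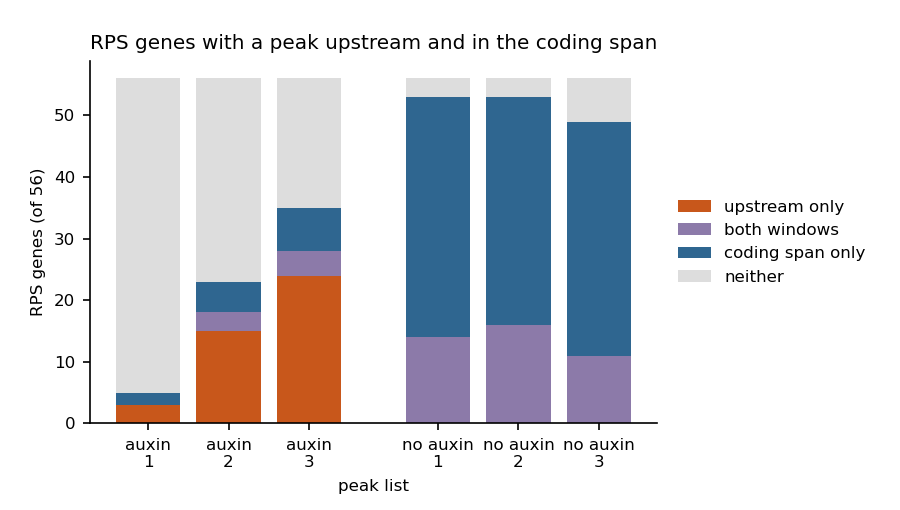
Stacked bars give the number of the 56 RPS genes with a peak upstream only (500 bp before the start codon), in both windows, in the coding span only or in neither, for each of the 3 auxin and 3 no-auxin peak lists. Coding-span peaks were at 2 to 11 genes with auxin and 49 to 53 without, while upstream peaks ranged over 3 to 28 genes with auxin and 11 to 16 without.

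Gene by gene, 37 of 56 RPS genes had a coding-span peak in all 3 no-auxin lists and in no auxin list, and are called lost below. The same pattern was seen at 5.56% of all coding genes. The opposite extreme, a coding-span peak in all 6 lists, was met by 2 RPS genes, RPS2 and RPS14B, beside 5.53% of all coding genes. Since RPS genes so often had a peak without auxin, the shares were also set against the 902 coding genes with a coding-span peak in all 3 no-auxin lists. Of the 49 RPS genes in that set 75.5% were lost, while of all 902 genes 37% were lost and 36.8% were kept in all 6 lists. Among the 778 genes of the set that are not named RPS, RPL or RPP, 31.6% were lost.

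The remaining RPS genes spread between these classes. In addition to the 2 genes with peaks in all 6 lists, 5 had a coding-span peak in all 3 no-auxin lists and in 2 auxin lists, and another 5 in 1 auxin list. There were 5 genes with a peak in only 1 or 2 no-auxin lists and no auxin list. RPS28A (chromosome XV, 648804 to 649007, minus strand) and RPS28B (chromosome XII, 673131 to 673334, plus strand) had no peak in the coding span or upstream window in any list. They encode a small protein near the exit of the mRNA channel, and their coding spans are among the shortest of the set, whose spans run over 171 to 1214 bp with a median of 766.5 bp.

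The test for each gene compared the percent of its coding span covered in the 3 auxin and 3 no-auxin lists, with an exact two-sided permutation test over 20 assignments. With 3 lists a group it cannot give a p below 0.1, and no gene could pass. Of 1988 coding genes with any coverage, 696 reached that p, and their Benjamini-Hochberg adjusted p of 0.286 was the smallest. No gene was under 0.05, adjusted or unadjusted. The auxin lists lay wholly below the no-auxin lists at 49 of 56 RPS genes, beside 9.98% of all coding genes, and wholly above at 0 RPS genes, beside 1.62%. Only a gene with a coding-span peak in all 3 no-auxin lists can lie wholly below. All 49 such RPS genes did, beside 599 of the 902 such coding genes, so much of this contrast restates the peaks without auxin.

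**Figure D2:**
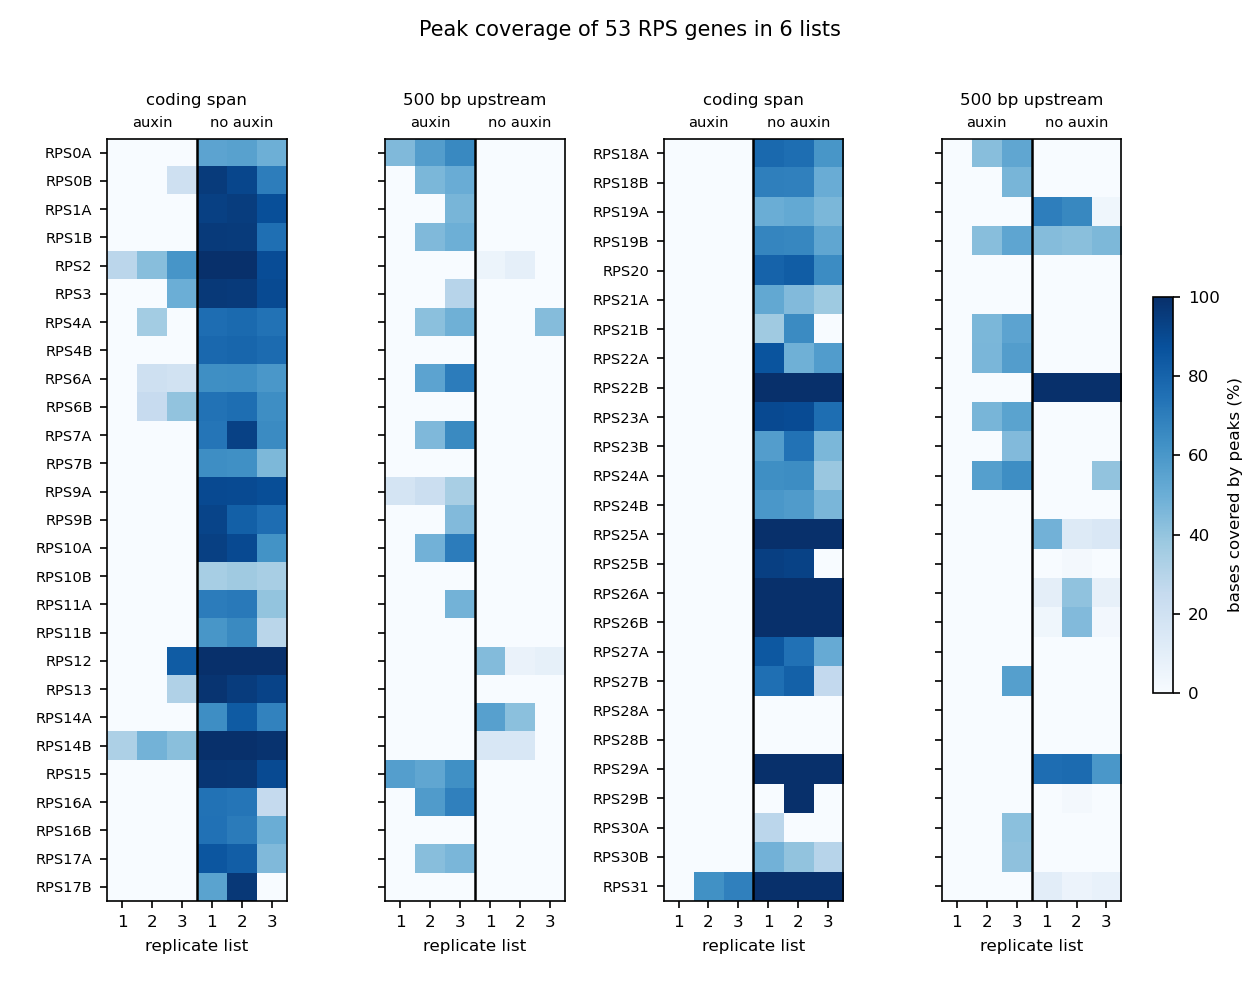
Percent of the coding span and of the 500 bp upstream window covered by peaks for 53 of the 56 RPS genes (rows) in each of the 3 auxin and 3 no-auxin lists (columns), darker blue being higher. Coding spans were covered in few auxin cells of the map and in nearly all no-auxin cells, and upstream windows were covered with auxin mainly in lists 2 and 3.

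Without auxin, peaks lay towards the 3′ end of the RPS coding spans. The share of RPS genes covered at the start codon was 0% with auxin and 18.5% without. At 300 bp upstream of the start it was 24.4% with auxin, the 3 lists being 3.6%, 28.6% and 41.1%, and 9.5% without auxin, the lists being 10.7%, 8.9% and 8.9%. Upstream coverage was thus higher in auxin lists 2 and 3 and lower in list 1 than in any no-auxin list. At 100 bp before the end of the coding span it was 10.1% with auxin, the 3 lists being 1.8%, 10.7% and 17.9%, and 91.1% without auxin, the lists being 94.6%, 94.6% and 83.9%. At 100 bp beyond the end it was 0% with auxin and 27.4% without, so that coverage declined within a short distance of the stop codon.

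Summits, the positions of highest enrichment within peaks, placed the no-auxin signal more exactly. Summits within RPS coding spans lay beyond the midpoint of the span in 2 of 2, 8 of 8 and 11 of 11 cases with auxin, and in 49 of 51, 50 of 52 and 47 of 48 without. Their median position was 77.9%, 68.4% and 70.6% of the way through the span in the auxin lists and 79.4%, 78.3% and 79.6% in the no-auxin lists. In coding genes outside the ribosomal protein sets the no-auxin medians were 65.1%, 66.2% and 60.0%, and in the large subunit genes they were 73.9%, 77.5% and 77.1%, close to those of RPS genes. The few coding-span peaks called with auxin at RPS genes were thus at the 3′ part of the gene as well. Auxin medians were 43.7%, 45.3% and 46.7% in coding genes outside the ribosomal protein sets and 45.9%, 71.3% and 75.3% in large subunit genes. The large subunit value in auxin list 1 rests on 4 summits.

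**Figure D3:**
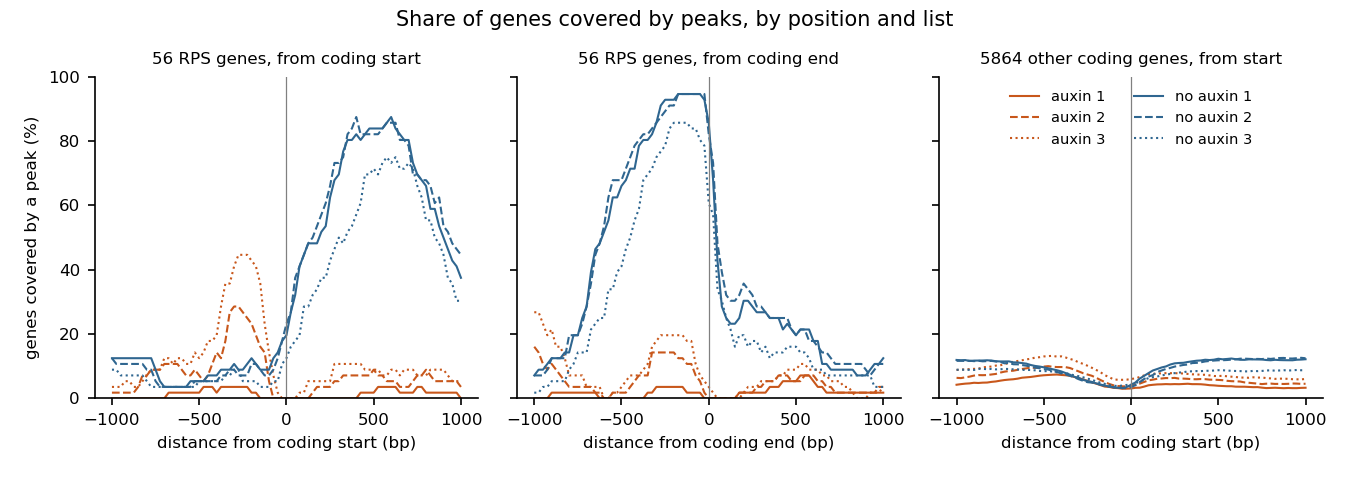
Percent of genes covered by a peak at each distance from the start codon, for RPS genes and coding genes outside the ribosomal protein sets. Distance from the end of the coding span is shown for RPS genes only. Each of the 3 auxin and 3 no-auxin lists has a line. At 100 bp before the coding end, RPS coverage averaged 10.1% with auxin and 91.1% without, and at 300 bp upstream of the start 24.4% with auxin and 9.5% without.

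Upstream of the start the picture differed between lists. A peak overlapped the 500 bp upstream window of 3, 18 and 28 of 56 RPS genes in the auxin lists, against 14, 16 and 11 in the no-auxin lists. The means of 29.2 ± 22.5% with auxin and 24.4 ± 4.49% without differed by less than the spread between the auxin lists, and the groups overlapped. Over all coding genes the shares were 14.9 ± 4.19% with auxin and 13.1 ± 0.552% without. The first auxin list, the shortest of the 6, had the fewest upstream peaks at RPS genes.

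The upstream peaks of the groups were not of the same kind. With auxin, none of the 49 upstream peaks reached the coding span, their summits were upstream in 44 cases, and their median width was 259 bp. Without auxin, 31 of 41 upstream peaks ran on into the coding span, 8 had an upstream summit, and the median width was 800 bp. An upstream peak with no coding-span peak in the same list was seen at 3, 15 and 24 RPS genes with auxin and at 0 in each no-auxin list. Only 3, 3 and 7 RPS genes lacked a coding-span peak in the no-auxin lists, so few could be in this class there. This contrast therefore partly restates the one in the coding span. As shares these were 5.36%, 26.8% and 42.9% of RPS genes with auxin, beside 6.96%, 8.55% and 10.4% of all coding genes, so RPS genes were above the genome in auxin lists 2 and 3 and below it in list 1. Without auxin the shares over all coding genes were 6.43%, 6.01% and 6.01%, and the large subunit genes, like the RPS genes, had 0 in each no-auxin list. Of the 82 large subunit genes, only 2, 4 and 7 lacked a coding-span peak in those lists.

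Among summits between 500 bp upstream of the start and the end of the coding span, 2 of 4, 16 of 24 and 26 of 37 lay upstream at RPS genes in the auxin lists, which is 50%, 66.7% and 70.3%. In the no-auxin lists the shares were 5.56%, 3.70% and 5.88%, from 3 of 54, 2 of 54 and 3 of 51 summits. The groups did not overlap in this share, although the first auxin list rests on 4 summits. The share also rises when coding-span summits are fewer, and these numbered 2, 8 and 11 with auxin and 51, 52 and 48 without. In number, upstream summits overlapped between the groups, at 2, 16 and 26 with auxin and 3, 2 and 3 without. In coding genes outside the ribosomal protein sets the shares were 42.9%, 40.7% and 42.7% with auxin and 17.8%, 17.2% and 29.3% without. The large subunit genes gave 69.2%, 56.8% and 64.3% with auxin and 2.44%, 3.80% and 3.90% without.

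The upstream summits at RPS genes with auxin lay mostly in a narrow range. With positions counted from the start codon and negative upstream, their medians were −305, −258 and −255 bp in the 3 auxin lists, where coding genes outside the ribosomal protein sets had medians of −344, −334 and −338 bp. The large subunit genes had medians of −252, −250 and −256.5 bp, close to those of RPS genes in auxin lists 2 and 3. The quartiles of the RPS summits were −312 and −244 bp in auxin list 2 and −291 and −227 bp in auxin list 3. At the 16 genes with an upstream summit in both lists, the positions in the 2 lists differed by 2 to 87 bp, with a median of 19 bp.

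**Figure D4:**
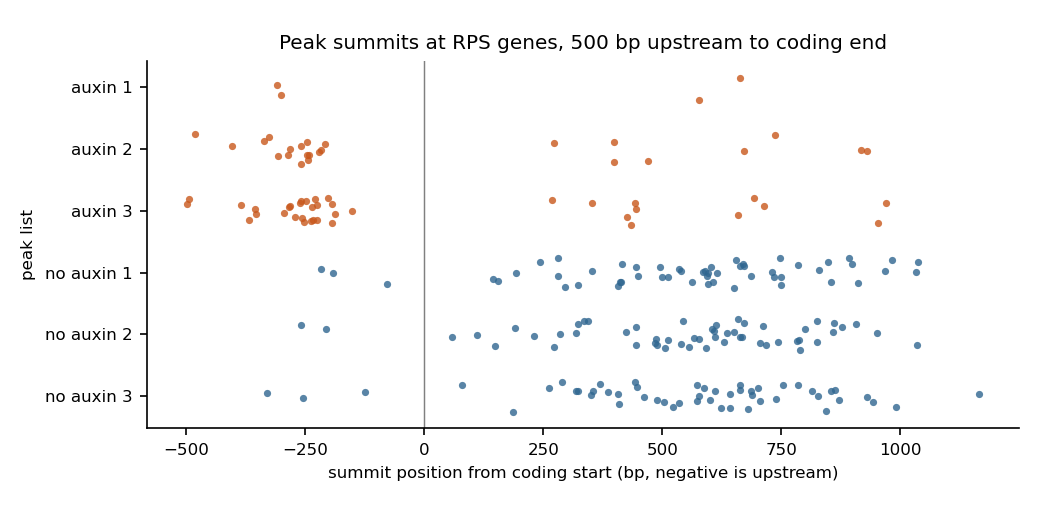
Position of each peak summit between 500 bp upstream of the start codon and the end of the coding span at RPS genes, in bp from the start codon, for each of the 3 auxin and 3 no-auxin lists. Summits upstream of the start (negative values) were 50% to 70.3% of summits with auxin and 3.70% to 5.88% without. In number they were 2 to 26 with auxin and 2 to 3 without, and coding-span summits were 2 to 11 and 48 to 52.

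An upstream peak in at least 2 auxin lists was found at 17 RPS genes, which is 30.36% of the set. The share was close to this in large subunit genes, at 29.27%, and was 14.02% in coding genes outside the ribosomal protein sets. Of the 17 RPS genes, 14 had no upstream peak in any no-auxin list. This pattern, called gained below, was seen at 4.23% of all coding genes. The count rests on auxin lists 2 and 3: when either is left out and both remaining auxin lists must hold the peak, 3 RPS genes remain, which is 5.36% of them beside 2.43% and 2.30% of all coding genes. Those 3 genes, RPS0A, RPS9A and RPS15, had an upstream peak in all 3 auxin lists and no no-auxin list, as did 2.23% of all coding genes. Over the 14 genes, upstream coverage was 0% to 56.8% in auxin list 1, 22% to 58% in list 2 and 34% to 70.6% in list 3, with medians of 0%, 46.2% and 56.1%. Only 3 of the 14 had any in list 1. The genes with an upstream peak under auxin were named after their values were seen.

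RPS15 (chromosome XV, 253149 to 253577, minus strand) encodes a protein of the subunit's head that is needed for export of the subunit precursor from the nucleus. Peaks covered 56.8%, 53.4% and 63% of its upstream window with auxin and 0% in each no-auxin list, and their summits lay at −309, −287 and −354 bp. Its coding span was covered over 0% in each auxin list, against 97.4%, 97% and 89.7% without auxin. The groups overlapped in neither window, and coverage was on opposite sides of the start codon in the 2 conditions.

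RPS0A (chromosome VII, 920575 to 921788, plus strand) encodes a protein required for maturation of the small subunit's RNA, and has the longest coding span of the set. Its upstream window was covered over 44.6%, 57.4% and 65.8% with auxin and 0% in each no-auxin list. Its coding span had 0% in each auxin list, against 54.5%, 55.7% and 49.3% without auxin. RPS9A (chromosome XVI, 404950 to 406044, plus strand), whose product affects the fidelity of translation, had 17.8%, 22% and 34% upstream with auxin and 0% without. The summits of these RPS9A peaks were at −518, −534 and −545 bp, just outside the window.

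Of the 37 RPS genes with a lost coding-span peak, 11 also had a gained upstream peak, namely RPS0A, RPS1B, RPS7A, RPS9A, RPS10A, RPS15, RPS16A, RPS17A, RPS18A, RPS22A and RPS23A. That is 29.7%, beside 12% of the 334 coding genes with a lost coding-span peak, 21.6% of the 51 such large subunit genes and 7.32% of the 246 such genes outside the ribosomal protein sets. A further 16 of the 37 had no upstream peak in any auxin list. Over the whole set, 21 RPS genes had no peak in either window in any auxin list. The share over all coding genes is not given for either count, so neither can be called particular to RPS genes. In single auxin lists, neither window had a peak at 51, 33 and 21 of 56 RPS genes. Over all 6002 coding genes the numbers were 5108, 4747 and 4465, so such absence was less frequent at RPS genes in auxin lists 2 and 3.

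Upstream peaks seen in all 3 no-auxin lists were mostly absent from the auxin lists. An upstream peak in all 3 no-auxin lists was found at 9 RPS genes, namely RPS12, RPS19A, RPS19B, RPS22B, RPS25A, RPS26A, RPS26B, RPS29A and RPS31, which is 16.1% of them beside 9.28% of all coding genes and 14.6% of large subunit genes. Of the 9, 8 had none in any auxin list, and RPS19B was the exception. Over all coding genes, 557 had an upstream peak in all 3 no-auxin lists, and 120 of these had none in any auxin list. As a share of the whole set, such lost upstream peaks were at 14.3% of RPS genes, beside 2% of all coding genes. No RPS gene had an upstream peak in all 6 lists, beside 5.63% of all coding genes. The exact permutation test on upstream coverage, run on 1548 coding genes, gave a smallest p of 0.1 and a smallest adjusted p of 0.356, with 0 genes under 0.05, adjusted or unadjusted. Upstream coverage with auxin was wholly below that without at 8 RPS genes, beside 2.87% of all coding genes, and wholly above at 3, beside 4.38%. Only a gene with an upstream peak in all 3 no-auxin lists can lie wholly below, and 172 of the 557 such coding genes did.

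Most of these no-auxin upstream peaks were parts of broad peaks over the gene. RPS12, RPS22B, RPS25A, RPS26A, RPS26B, RPS29A and RPS31 are also the 7 RPS genes whose coding span was covered over 100% in every no-auxin list. At RPS22B (chromosome XII, 856442 to 857317, plus strand) the upstream window had 0% in each auxin list, against 100% in each no-auxin list, and the snoRNA gene SNR44 lies within its span. At RPS19A and RPS19B, whose protein is needed to process the small subunit's RNA, the upstream peaks without auxin had summits between −826 and −692 bp, outside the window. RPS19B had 0%, 42.8% and 53.8% upstream coverage with auxin and 43.6%, 42.4% and 45.6% without, so its groups overlapped.

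The 8 single-copy genes were the best covered without auxin, with a median coding-span coverage of 95.0% beside 71.1% for A copies and 62.2% for B copies. A coding-span peak was at 1, 2 and 5 of them in the auxin lists and at 8 of 8 in each no-auxin list. Mean coverage of the coding span was 17.9 ± 17.1% with auxin and 93.7 ± 4.13% without (SD, n = 3 lists each).

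RPS2 (chromosome VII, 277617 to 278381, plus strand) and RPS3 (chromosome XIV, 302680 to 303402, plus strand) encode neighbours at the entry of the mRNA channel. RPS2 had 28.5%, 42.9% and 60.8% of its coding span covered with auxin, against 100%, 100% and 88.8% without, and the means were 44.1 ± 16.2% with auxin and 96.3 ± 6.49% without (SD, n = 3 each). It was covered in all lists, but less in each auxin list than in any no-auxin list. RPS3 had 0%, 0% and 49.9% with auxin, against 96.1%, 95.9% and 89.8% without, its auxin coverage coming from list 3 alone.

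RPS31 (chromosome XII, 498947 to 499405, plus strand) is translated as a fusion of ubiquitin and the ribosomal protein. Its coding span was covered over 0%, 62.7% and 69.1% with auxin, against 100% in each no-auxin list. RPS12 (chromosome XV, 1028194 to 1028625, minus strand), which encodes a protein of the subunit's beak, had 0%, 0% and 83.1% with auxin and 100% in each no-auxin list. RPS13 (chromosome IV, 579458 to 580452, plus strand) had 0%, 0% and 31.8% with auxin, against 98.3%, 95.1% and 92.3% without. In these 3 genes coverage was highest in list 3 among the auxin lists, and the groups did not overlap.

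RPS20 (chromosome VIII, 75412 to 75777, plus strand), a head protein gene, was lost. Its coding span had 0% in each auxin list, against 80.3%, 82.5% and 64.5% without, and it had no upstream peak in any list.

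RPS4B, RPS9A, RPS9B, RPS15 and RPS14A were among the 6 lost genes with the highest fold enrichment without auxin. The authors' caller gave them median folds over the no-auxin lists of 2.89, 2.80, 2.68, 2.64 and 2.61. The 12 RPS genes with a coding-span peak in at least 1 auxin list had no-auxin folds of 2.60 to 3.49 with a median of 3.04, and the 42 with such peaks in no-auxin lists only had 1.76 to 3.11 with a median of 2.21. The genes still called with auxin were therefore mostly those with the higher folds without it, with overlap between the sets. For upstream peaks no such difference was seen: the 17 genes with an upstream peak in at least 2 auxin lists had a median no-auxin coding-span fold of 2.34, and the other 37 genes with a coding-span peak had 2.32.

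Paralogues were compared by the percent of each window covered. The A and B copies of a pair have nearly the same coding sequence, so reads may be placed on either copy and coding-span peaks of a pair are uncertain as separate observations. A coding-span peak in all 3 no-auxin lists was present at both copies in 18 of 24 pairs, at the A copy only in 4, at the B copy only in 1 and at neither in 1. With auxin, a coding-span peak in at least 2 lists was at both copies in 2 pairs, RPS6 being among them, and at the B copy only in 1 pair, RPS14.

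RPS14A (chromosome III, 177500 to 178220, minus strand) and RPS14B (chromosome X, 73787 to 74611, plus strand) encode a protein of the platform involved in maturation of the small subunit's RNA. RPS14A had 0% of the coding span covered in each auxin list, against 63.8%, 83.5% and 68.2% without. RPS14B had 32.5%, 47.8% and 42.4% with auxin, against 100%, 100% and 98.7% without, and the means were 40.9 ± 7.75% with auxin and 99.6 ± 0.77% without (SD, n = 3 each). The B copy was the more covered in every list, and neither copy had an upstream peak with auxin.

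RPS6 kept coding-span peaks at both copies in auxin lists 2 and 3. RPS6A (chromosome XVI, 377291 to 378395, minus strand) and RPS6B (chromosome II, 591712 to 592774, minus strand) encode the protein that is phosphorylated downstream of TOR signalling. RPS6A had 0%, 20.8% and 19.2% with auxin, against 63.3%, 63.8% and 59.8% without, and RPS6B had 0%, 24.4% and 40.5% with auxin, against 74.4%, 76% and 63.9% without. RPS6A was also the only RPS gene with peaks in both windows in at least 2 auxin lists, its upstream window being covered over 0%, 54.4% and 70.6% with auxin and 0% without, and RPS6B had 0% upstream in all 6 lists. The copies thus had coding-span peaks in the same auxin lists, and their groups did not overlap there.

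Upstream peaks with auxin were split between copies more often than shared. An upstream peak in at least 2 auxin lists was at both copies in 1 pair, RPS0, at the A copy only in 11, at the B copy only in 3 and at neither in 9. Counted by gene, it was present at 12 of 24 A copies, 4 of 24 B copies and 1 of 8 single-copy genes. In single auxin lists the A copy alone had an upstream peak in 2, 11 and 10 pairs, and the B copy alone in 0, 4 and 3. Both copies had one in 0, 1 and 6 pairs, so sharing was more frequent in auxin list 3. Without auxin the A copy alone had one in 2, 0 and 4 pairs, the B copy alone in 1, 1 and 1, and both copies in 4, 6 and 2. The letters do not mark a common ancestor or function across pairs, and no test was run on this count.

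**Figure D5:**
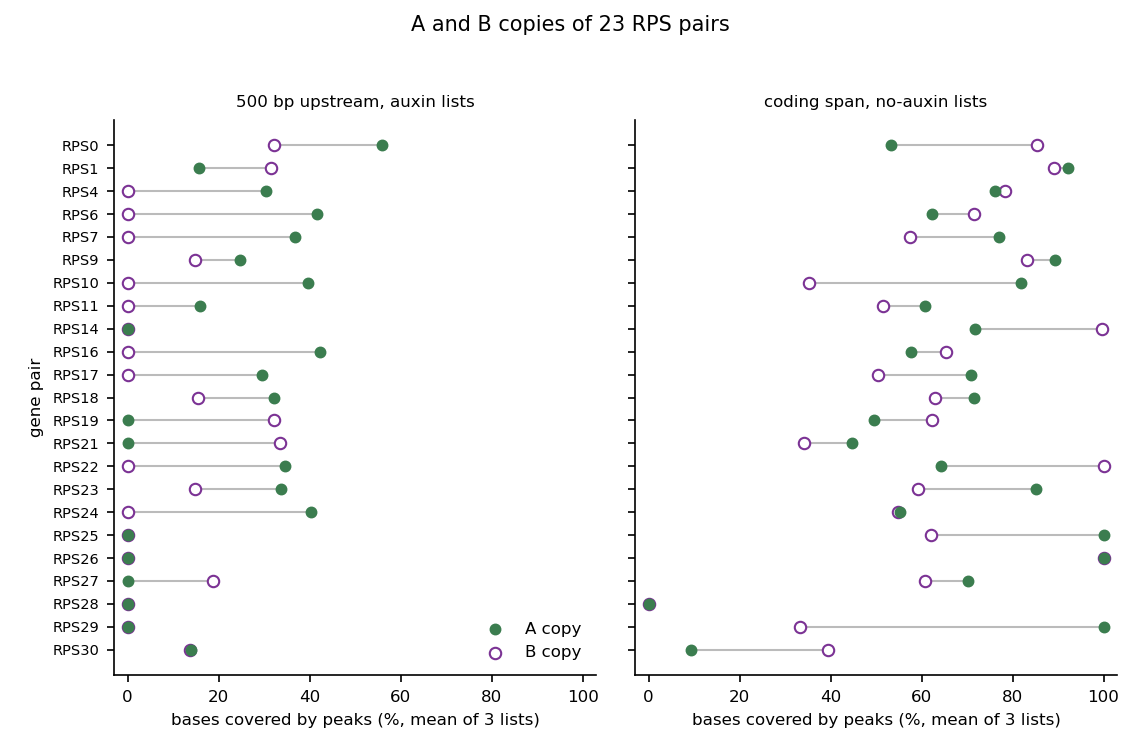
Percent of the upstream window covered with auxin (left) and of the coding span covered without auxin (right) in the A copy (filled) and the B copy (open) of 23 of the 24 RPS pairs, each point being the mean of 3 lists. Over all 24 pairs, upstream coverage with auxin was higher in the A copy in 15 pairs, higher in the B copy in 4 and equal in 5, and coding-span coverage without auxin was higher in the A copy in 14 pairs, in the B copy in 8 and equal in 2.

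The pairs with the largest upstream difference with auxin were RPS16, RPS6, RPS24, RPS10, RPS7 and RPS22, all with more coverage at the A copy. RPS16A (chromosome XIII, 551928 to 552903, plus strand), whose product has a tail that reaches the transfer RNA in the ribosome, had 0%, 58% and 69% upstream with auxin and 0% without. RPS16B (chromosome IV, 306926 to 307789, minus strand) had 0% upstream in all 6 lists. Their coding spans were similarly covered without auxin, RPS16A at 74.5%, 73.2% and 25.3% and RPS16B at 74.7%, 70.9% and 50.3%, and both had 0% in each auxin list. The copies thus differed upstream with auxin and not by more than the spread of the lists in the coding span.

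RPS7A (chromosome XV, 505794 to 506767, plus strand) had 0%, 45% and 65.6% upstream with auxin and 0% without, and RPS7B (chromosome XIV, 443398 to 444315, minus strand) had 0% in all 6 lists. RPS24A (chromosome V, 306323 to 307196, plus strand) had 0%, 56.6% and 64% upstream with auxin and 0%, 0% and 40.6% without, and RPS24B (chromosome IX, 231553 to 232369, minus strand) had 0% in all 6 lists. The coding spans of all 4 genes were lost. RPS7B is the only RPS gene within 1000 bp of a tRNA gene, a class of gene known as a site of Scc2 binding, at 279 bp.

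RPS10A (chromosome XV, 867098 to 867852, plus strand) and RPS10B (chromosome XIII, 732414 to 733141, plus strand), which encode a head protein near the mRNA entry, differed in both windows. RPS10A had 0%, 48.2% and 70.6% upstream with auxin and 0% without, while RPS10B had 0% in all 6 lists. In the coding span RPS10A had 0% in each auxin list, against 93.6%, 90.1% and 62% without, and RPS10B had 0% in each auxin list, against 34.6%, 37.1% and 34.3% without. Where peaks were called, the A copy was the more covered in every no-auxin list.

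RPS22 differed in the opposite sense between windows. RPS22A (chromosome X, 74910 to 75302, minus strand) had 0%, 46.4% and 57.4% upstream with auxin and 0% without, and its coding span had 0% in each auxin list, against 86.3%, 49.1% and 57.5% without. RPS22B had 0% in both windows in each auxin list, against 100% in both windows in each no-auxin list. The copy with the broad no-auxin peak was the copy without an upstream peak under auxin. RPS22A and RPS14B are convergent neighbours on chromosome X, and no peak in any list was shared by any 2 RPS genes, these included.

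In 3 pairs an upstream peak in at least 2 auxin lists was at the B copy only. RPS1B (chromosome XIII, 146482 to 147249, plus strand) had 0%, 44.8% and 49.4% upstream with auxin and 0% without, and RPS1A (chromosome XII, 1018141 to 1018908, minus strand), whose window holds part of SIR3, had 0%, 0% and 46.8% with auxin and 0% without. RPS21B (chromosome X, 156550 to 157273, minus strand) had 0%, 46% and 54.6% upstream with auxin and 0% without, and RPS21A (chromosome XI, 551657 to 552242, plus strand), whose window holds part of TRM2, had 0% in all 6 lists. The other such pair was RPS19. The A copies of RPS1 and RPS21 had another gene in the window and RPS19A did not, and any part of this in the difference was not tested. Over all RPS genes, 16 had another gene in the upstream window, and of the 17 with an upstream peak in at least 2 auxin lists RPS23A alone did. That depends on the requirement of 2 lists. Among the auxin lists, RPS1A, RPS8A, RPS9B, RPS23B, RPS30A and RPS30B, which also have another gene in the window, had an upstream peak in list 3 only.

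RPS4 and RPS9 had coding spans covered alike at both copies without auxin. RPS4A (chromosome X, 702027 to 703068, minus strand) had 0%, 35.8% and 0% of the coding span covered with auxin, against 76.2%, 77.6% and 74.4% without, and RPS4B (chromosome VIII, 504476 to 505530, minus strand) had 0% in each auxin list, against 78.4%, 79.1% and 77.3% without. Upstream, RPS4A had 0%, 42% and 49.2% with auxin and 0%, 0% and 43.6% without, whereas RPS4B had 0% in all 6 lists. RPS9B (chromosome II, 604508 to 605508, plus strand) had 0% of the coding span covered in each auxin list, against 91.9%, 81.3% and 76.3% without, beside 0% in each auxin list and 90%, 89.5% and 88.5% without at RPS9A. Upstream, RPS9B had 0%, 0% and 44.2% with auxin and 0% without, so that it was below RPS9A in auxin lists 1 and 2 and above it in list 3. The copies of RPS4 thus differed upstream in auxin lists 2 and 3, and those of RPS9 had no set order there.

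RPS0 was the only pair with an upstream peak at both copies in at least 2 auxin lists. RPS0B (chromosome XII, 242232 to 243349, plus strand) had 0%, 45.8% and 50.4% of its upstream window covered with auxin and 0% without. Its coding span was covered over 0%, 0% and 20.7% with auxin, against 95.3%, 91.1% and 69.9% without, which in each no-auxin list was above RPS0A.

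Other pairs that differed in the coding span without auxin were RPS29, RPS25 and RPS30. RPS29A (chromosome XII, 898651 to 898821, plus strand) had 0% in each auxin list, against 100% in each no-auxin list, and RPS29B (chromosome IV, 340628 to 340798, minus strand) had 0% in each auxin list, against 0%, 100% and 0% without. RPS25A (chromosome VII, 534132 to 534458, minus strand) had 0% with auxin and 100% in each no-auxin list, and RPS25B (chromosome XII, 795573 to 795899, minus strand) had 0% with auxin and 93.9%, 92.7% and 0% without. RPS30A (chromosome XII, 712537 to 713158, minus strand) had 0% with auxin and 28.3%, 0% and 0% without, and RPS30B (chromosome XV, 678191 to 678793, minus strand) had 0% with auxin and 48.4%, 40.3% and 29.5% without. In RPS29 and RPS25 the B copy varied between 0% and over 90% from list to list without auxin, so those copies differ with little support from replicates. Both RPS30 copies had an upstream peak in the third auxin list only, over 41.8% and 41.2% of the window.

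Genes were also counted by where their protein sits in the subunit. Of the 22 genes for head proteins 14 were lost, and of the 34 for proteins of the body and platform 23 were lost. An upstream peak in at least 2 auxin lists was at 6 of the 22 and 11 of the 34, so these shares were alike. A coding-span peak in at least 2 auxin lists was at 1 of the 22 and 6 of the 34, and no test was made between these sets.

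The large subunit genes followed a like pattern. Coding-span peaks were at 5, 16 and 23 of 82 genes with auxin and at 80, 78 and 75 without, 51 genes or 62.2% were lost and 5 were kept in all 6 lists. Upstream peaks were at 11, 22 and 40 genes with auxin and 20, 17 and 14 without, and 16 genes were gained. The gained share was thus 25% of RPS genes and 19.5% of large subunit genes. No test was made between the families.

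Genes that work with the small subunit but are not named RPS were counted from fixed lists. ASC1, which encodes a scaffold protein on the small subunit, had 0%, 17% and 0% of its coding span covered with auxin, against 99.4%, 98.2% and 94.6% without, and 0% upstream in all 6 lists. Of 12 genes for regulators of ribosomal protein genes, 0, 1 and 1 had a coding-span peak with auxin and 5, 4 and 2 without. Of 27 genes for small subunit assembly factors, 2, 3 and 2 had one with auxin and 6, 7 and 3 without. Without auxin the shares averaged 30.6 ± 12.7% of regulators and 19.8 ± 7.71% of assembly factors (SD, n = 3 lists each), near the 22.3% of all coding genes, while ASC1 was covered over a share like that of the single-copy RPS genes.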

How the data were processed

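The authors deposited a narrow peak list for each of the 6 Myc immunoprecipitates, with positions on sacCer3. No list goes with the 6 total chromatin samples. Per the submitters' processing notes, Bowtie2 2.4.2 and MACS2 2.1.1.20160309 were used. The sources used here do not state their settings, the control or the peak threshold. The fold enrichment is a ratio deposited by the authors, and the −log10 p and −log10 q values and the peak score are theirs as well. Their lowest −log10 q was 2.31 to 2.76. Fold was used only to describe and rank peaks. The calibration with fission yeast, mixed in at 1 to 4, enters no value.

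Genes came from the RefSeq R64 table, with strand read from the systematic name and introns not separated. A peak was placed in the coding span or in the 500 bp upstream of it by an overlap of 1 base. Coverage is the percent of a window under peaks. Each coding gene with coverage was tested by an exact two-sided permutation test with Benjamini-Hochberg adjustment over all of them, and the procedure was tested on simulated data. A number that follows ± is an SD over 3 lists.

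The members and lists were chosen with earlier results of these data known. The text names the single-copy genes, genes with coding-span or upstream peaks in all 6 lists, the 6 lost genes of highest median fold, genes without a coding-span peak in any no-auxin list, and the 6 pairs that differed most in each of 2 windows. Gained upstream peaks, summits, list pairs of similar length, and the head and body grouping were added after seeing the data. Some items that the naming rule gave are not reported here. Alternatives were list length, q, overlap, window, distance from tRNA genes and leaving out each list. Python 3.11.15, numpy 2.4.6, pandas 2.3.3, statsmodels 0.14.6 and matplotlib 3.10.9 were used.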

Additional observations from a re-analysis of the deposited data

How the results depend on the processing

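The lower coding-span values with auxin kept their direction under every alternative run: the difference in the percent of RPS genes with a coding-span peak was −79.8 points and ran from −83.3 to −75.3 when a list was left out, the difference in mean coverage was −64.5 points (−70.1 to −61.2), lost genes numbered 37 (37 to 41) and genes with groups that did not overlap 49 (49 to 52). Lost genes were 27 when every list was cut to its 964 most significant peaks, beside 3.35% of all coding genes. Genes with groups that did not overlap were 34 at that setting, and the share over all coding genes is not given for this count. Genes kept in all 6 lists were 2, with 2 to 7 when a list was left out, the 7 coming without the first auxin list, and 1 at equal list length.

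Upstream results depended more on the processing. The difference of 4.76 points in RPS genes with an upstream peak ran from −5.65 to 16.7 when a list was left out, which includes both directions, and was 21.4 when the summit had to lie in the window. The difference in upstream coverage was 5.88 points (−0.0369 to 11.9). Gained genes were 14, with 3 to 16 when a list was left out, and 13 at equal list length, beside 4.32% of all coding genes. Genes with a lost upstream peak were 8 (8 to 11), but 2 with an overlap of at least 100 bases, 1 with the summit in the window and 5 with a window of 1000 bp. Genes with an upstream peak in all 6 lists were 0 (0 to 1) and 1 with a window of 1000 bp. Genes with upstream coverage wholly lower with auxin were 8 (8 to 12). The difference in the share of summits that lay upstream was 57.3 points (53.3 to 63.4), 66.9 at equal list length and 29.8 with a window of 250 bp. That share depends on the number of coding-span summits as well. The cause of these moves was not tested, apart from the window or overlap itself. The other alternatives left each result within the spread between lists or within 1.5 times its count.

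Lists with the same replicate number did not deviate together, with correlations of −0.0975, 0.00650 and −0.0313 for the coding span and 0.0321, 0.0316 and 0.0895 upstream, and not every list correlated best with its own number. With the replicate number as a block, coverage was lower with auxin in every same-numbered pair at 49 RPS genes in the coding span and at 8 upstream, as without the block. Depth is unknown, so a missing peak cannot be told apart from a weak one.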
